A study of Homo sapiens and Pan troglodytes with 11 samples.

Results

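Cell-to-cell covariation of a gene panel was examined in human neurons by HyPR-seq, an assay that counts transcripts of chosen genes in single cells through ligated probe pairs. The members were cells of 2 libraries, called human 4 and human 5, in which GAPDH took at most 80% of the gene UMIs (unique molecular identifiers, here counted transcripts) and the other 20 gene columns held at least 60 UMIs. The rule kept 1444 of 3825 cells of human 4 (37.8%) and 3565 of 4621 cells of human 5 (77.1%), together 5009 of the 41950 cells of the series. Both libraries held excitatory neurons, 2 weeks old, derived from the human induced pluripotent stem cells WTC11, in screen replicate 2 of a CRISPR interference screen of human accelerated regions. In CRISPR interference a guide RNA leads a catalytically dead Cas9 with a repressor to a chosen site. Every cell of these libraries came from such a screen, so there was no unperturbed group, and the promoter driving the repressor is not given in the sources used here. The series held 11 libraries, and 2 chimpanzee libraries of the line C3649 (chimpanzee 3 and chimpanzee 4, same cell type and same screen replicate) carried the same 21 genes. Each species was 1 line. Nothing in the labels shows human 4 and human 5 to be separate cultures, so the spread between them may be technical.

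The panel held no standard list of markers for excitatory neurons, so the labelled cell type could be checked only in part. NRSN2, which encodes a neuronal membrane protein, took 5.60% and 5.40% of the UMIs outside GAPDH in human 4 and human 5, and ONECUT2, a transcription factor of developing neurons, took 4.43% and 5.72%. SCRT2, a neural zinc-finger repressor, took 1.23% and 1.25%. GLI2, an effector of Hedgehog signalling in progenitors, took 0.787% and 0.717%, and DAZL, a germ-cell RNA-binding protein, took 0.513% and 0.457%, the lowest level of the 19 genes reported.

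Cells of 1 type can differ in how far they have matured, in their subtype and in their metabolic state, and genes that follow such a state vary together from cell to cell. Transcription factors of the ONECUT family carry a CUT domain and a homeodomain and take part in the specification and early differentiation of several classes of neurons. BAZ1A is a subunit of ISWI chromatin-remodelling complexes that space nucleosomes and work in chromatin replication and repair. AKAP6 anchors protein kinase A at the nuclear envelope and other membranes, PLXNC1 is a semaphorin receptor, and NPAS3 is a basic helix-loop-helix factor of the developing brain.

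ONECUT2 and 2 genes that varied with it are shown by the 250 bases before their annotated transcript start (RefSeq, GRCh38.p14), because they are the factor on which the results turn, its strongest companion and the other transcription factor held above with it. The windows lie at chr18:57435124-57435373 on the plus strand for ONECUT2, chr12:94148327-94148576 on the plus strand for PLXNC1 and chr20:675803-676052 on the minus strand for SCRT2. They are written 5′ to 3′ along each gene, with matches to the searched motifs in capitals.
ONECUT2: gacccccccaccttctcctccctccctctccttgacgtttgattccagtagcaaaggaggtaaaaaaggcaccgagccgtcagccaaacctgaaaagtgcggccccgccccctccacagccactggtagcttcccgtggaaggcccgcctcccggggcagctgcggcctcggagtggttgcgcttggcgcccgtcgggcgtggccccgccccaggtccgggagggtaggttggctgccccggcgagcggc
PLXNC1: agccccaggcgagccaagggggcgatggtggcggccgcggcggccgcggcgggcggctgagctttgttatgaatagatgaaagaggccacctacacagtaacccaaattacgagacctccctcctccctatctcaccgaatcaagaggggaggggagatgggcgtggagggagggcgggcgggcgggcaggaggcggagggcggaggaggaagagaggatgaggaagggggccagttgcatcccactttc
SCRT2: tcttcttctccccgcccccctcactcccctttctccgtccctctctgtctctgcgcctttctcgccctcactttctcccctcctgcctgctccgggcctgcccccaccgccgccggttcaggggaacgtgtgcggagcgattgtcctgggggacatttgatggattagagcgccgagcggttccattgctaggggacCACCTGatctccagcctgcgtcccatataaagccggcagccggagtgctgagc
The motifs searched on both strands were ATTGAT and ATCGAT, core letters of ONECUT sites, and CAGGTG, an E-box that Scratch-family factors such as SCRT2 bind. Among the windows of all 35116 RefSeq promoters, 5.58% held ATTGAT, 0.655% held ATCGAT and 17.5% held CAGGTG. The single match printed in capitals is CACCTG, the reverse complement of CAGGTG, in the SCRT2 window. Of the panel, 17 genes could be matched to the promoter table, with 26 windows among them. ATTGAT was present in 2 of the 26 windows (7.69%), for GLI2 and TBC1D5, and ATCGAT in 0. CAGGTG was present in 5 of the 26 (19.2%), for GLI2, NPAS3, PLCL2, SCRT2 and SRXN1. A match of letters is not a measured binding site.

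The libraries differed in composition and shared cell barcodes. Their gene UMIs totalled 862461 in human 4 and 835814 in human 5, of which GAPDH took 67.9% and 45.2%. GAPDH took more than 80% of the gene UMIs in 1712 cells of human 4 and in 9 cells of human 5, and these cells were outside the rule. Among the members, the median GAPDH share was close, at 43.4% and 41.7%, and the median number of UMIs outside GAPDH was 131 (quartiles 99 and 169) and 101 (77 and 136). A cell barcode of human 4 occurred again in human 5 in 1060 cases and in chimpanzee 3 in 1003 cases, and human 5 shared 995 barcodes with chimpanzee 3. Among the members, 45 cells of human 4 (3.12%) and 649 cells of human 5 (18.2%) had a barcode that was also present in another library, and 39 barcodes were members in both. Counts of gene pairs are therefore also given without those cells. At the lower edge of the rule, ONECUT2 took 2.95% of the UMIs in the 92 human 4 cells with 50 to 59 UMIs and 3.20% in the 75 cells with 60 to 69. The same levels in human 5 were 5.88% in 505 cells and 5.44% in 517 cells. At the GAPDH limit, ONECUT2 took 4.59% in the 56 human 4 cells with GAPDH at 70 to 80% and 5.70% in the 33 cells at 80 to 90%. In human 5 it took 3.81% in 43 cells and 2.49% in 4 cells.

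Each member was thinned to 60 UMIs outside GAPDH, so that all cells had the same depth. For each gene the variance of its count over cells was divided by the variance that cells drawn from 1 shared profile, the mean of that library, would have. This variance ratio is 1 where counting alone separates cells. ONECUT2 had the highest ratio in both libraries, at 3.28 in human 4 and 2.80 in human 5, although its mean level was only 2.66 and 3.43 of 60 UMIs. Cells with 0 ONECUT2 UMIs made up 27.2% of human 4, where the shared profile gives 6.58%, and 15.7% of human 5, where it gives 2.93%. At the other end, 15.7% and 22.2% of cells had 6 or more ONECUT2 UMIs, where the shared profile gives 4.94% and 12.7%. Both cells with 0 ONECUT2 UMIs of 60, which may still hold the transcript at a low level, and cells rich in it were thus more frequent than counting noise around a common level gives.

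BAZ1A followed with variance ratios of 2.57 and 2.14, and 8.17% and 6.90% of cells had 0 BAZ1A UMIs where the shared profile gives 1.77% and 2.29%. AKAP6, the most abundant gene at 18.2% of the UMIs in both libraries, had ratios of 2.36 and 1.86, and NPAS3 had 1.95 and 1.84. The ratio of PSMA6, a subunit of the proteasome core, was 1.87 in human 4 and 1.17 in human 5, the largest gap between the libraries. TENM3, a teneurin adhesion protein of synaptic partner matching, had ratios of 1.66 and 1.54, and ARHGAP5 had 1.47 and 1.45. DCTD, a deoxycytidylate deaminase of nucleotide synthesis, had 1.38 and 1.35, NRSN2 1.43 and 1.40, and PLXNC1 1.35 and 1.31. Antiproliferative BTG1 had 1.45 and 1.28, and BHLHE40, a repressor of the clock and of stress responses, 1.33 and 1.39. TBC1D5, a Rab GTPase regulator of endosomal sorting, had 1.21 and 1.12. Ratios of the remaining 6 genes ran from 1.07 to 1.18 in human 4 and from 1.08 to 1.19 in human 5. Relative to its size, the level of ONECUT2 differed most between the libraries.

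**Figure D1:**
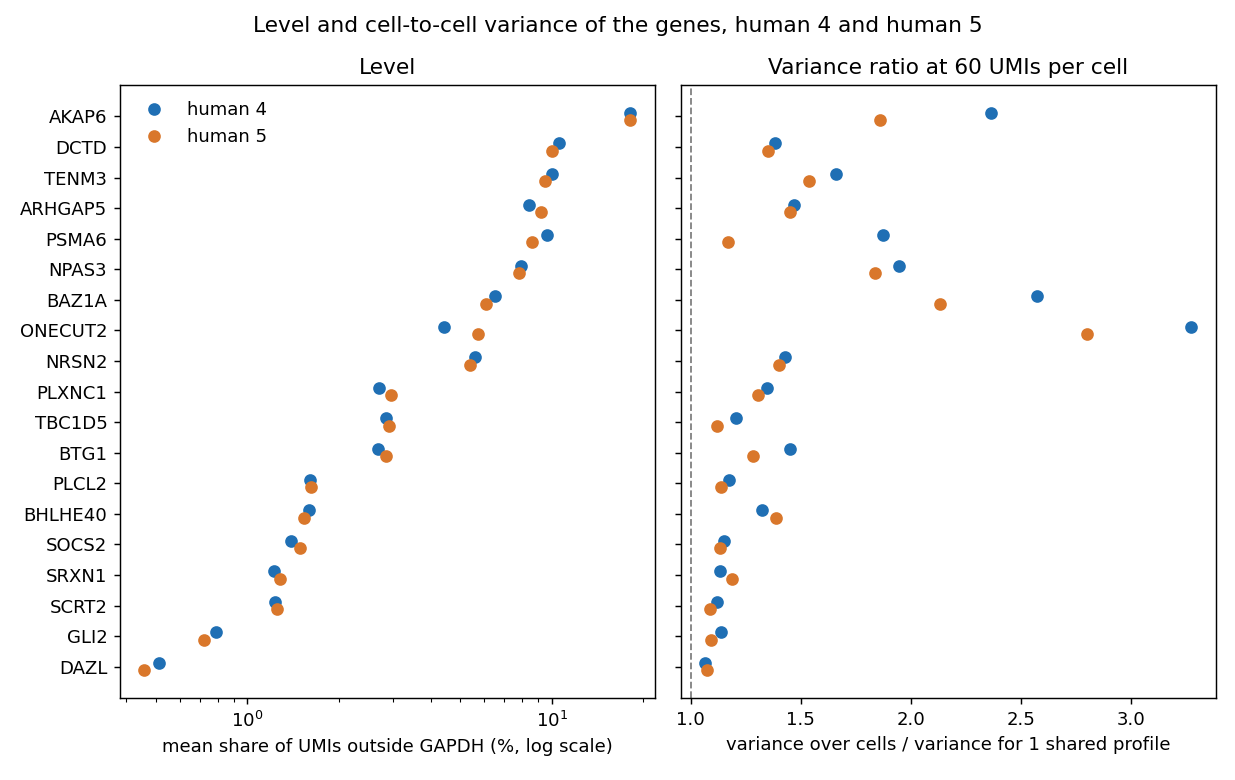
Level of each of the 19 genes (percent of UMIs outside GAPDH) and its variance ratio (variance over cells divided by the variance that 1 shared profile gives) in human 4 and human 5. ONECUT2 has the highest ratio in both libraries, at 3.28 and 2.80, and DAZL, at 1.07 and 1.08, lies at the bottom.

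For each of the 171 pairs of the 19 genes, the Pearson correlation over cells was compared with the correlation that cells drawn from the shared profile have, which is slightly negative because the UMIs of a cell sum to a fixed total. The difference is called the excess correlation. A pair was counted as held where its excess was at least 0.10 in size with the same sign in both libraries. The counting spread of a correlation between unrelated genes was about 0.0263 for 1444 cells and 0.0168 for 3565 cells. Since cells are not replicates, the correlations carry no test. The fixed total also ties the genes to each other, because a cell rich in some transcripts must have smaller shares of others.

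Of the 171 pairs, 15 were held above expectation (8.77%) and 13 below it (7.60%), together 28 (16.4%). Human 4 alone had 19 pairs at 0.10 or more (11.1%) and 14 at -0.10 or less (8.19%), and human 5 had 15 (8.77%) and 13 (7.60%). The 5 pairs that passed in 1 library passed only in human 4, namely ONECUT2 with SRXN1 and with SOCS2, BAZ1A with SRXN1, AKAP6 with SRXN1 and DCTD with NPAS3. The excess had the same sign in both libraries for 158 of 171 pairs, and in the other 13 pairs its size was at most 0.0308. The libraries differed by a median of 0.0179 per pair, and the largest difference was that of ONECUT2 with SOCS2, an inhibitor of cytokine signalling, at 0.126 in human 4 and 0.0371 in human 5. Across pairs, which share genes and so are not independent, the values of both libraries had a Pearson correlation of 0.961 and a Spearman correlation of 0.930 (n = 171 pairs). Of the 28 held pairs, 19 contained ONECUT2, BAZ1A or both. Each of the 19 genes is in an equal number of the 171 pairs, so most of the 171 contain neither.

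**Figure D2:**
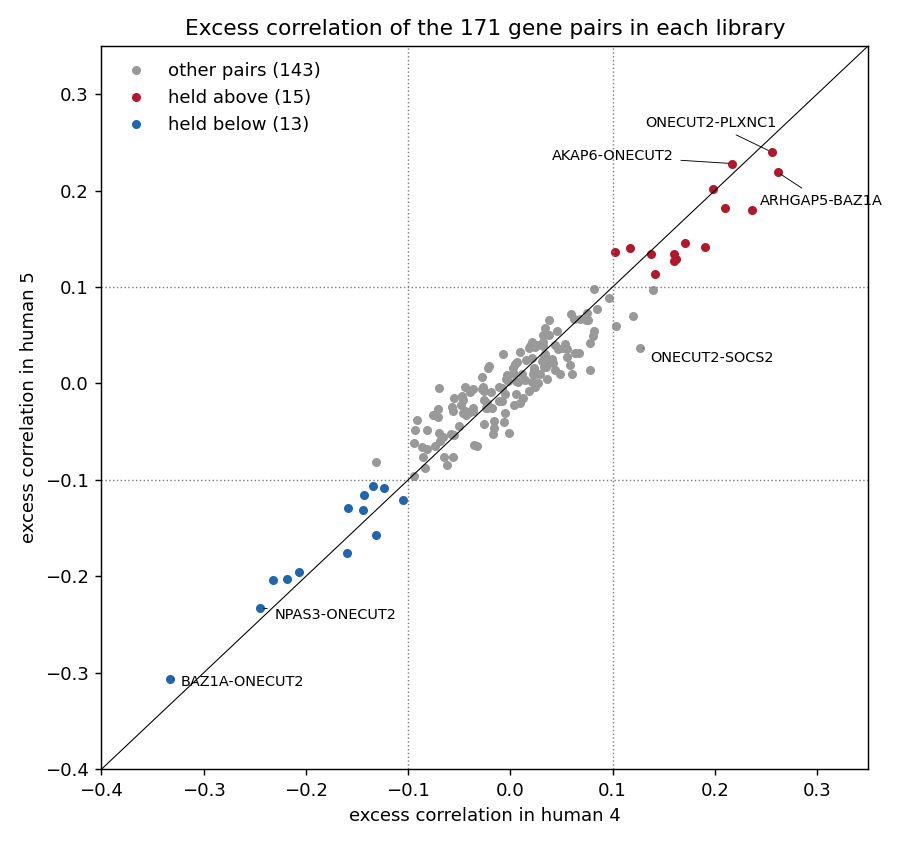
Excess correlation of each of the 171 gene pairs in human 4 (horizontal axis) and human 5 (vertical axis), with dotted lines at 0.10 and -0.10 and a solid line of equality. The 15 pairs held above and the 13 held below lie near the line of equality, and BAZ1A with ONECUT2 is lowest in both libraries.

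ONECUT2 was in 5 pairs held above and 6 held below, more than any other reported gene. Its strongest companion was PLXNC1, with an excess of 0.256 in human 4 and 0.240 in human 5. With counting noise removed, the correlation of the underlying shares of ONECUT2 and PLXNC1 was 0.558 and 0.566. AKAP6 followed at 0.217 and 0.228, and NRSN2 at 0.237 and 0.180. PLCL2, a relative of phospholipase C that lacks catalytic activity, gave 0.160 and 0.134, and SCRT2 gave 0.117 and 0.140 although it averaged less than 1 UMI in 60. By the correlation of the underlying shares with ONECUT2 the order differed. AKAP6 was the lowest of the 5 companions at 0.240 and 0.299. NRSN2 had 0.456 and 0.351, PLCL2 0.455 and 0.431, and SCRT2 0.386 and 0.564. The variance ratios of PLCL2 (1.18 and 1.14) and SCRT2 (1.12 and 1.09) were near 1. Their share correlations therefore rest on little variance beyond counting, and no spread is given for them. Cells rich in ONECUT2 thus had larger shares of a semaphorin receptor, a kinase anchor and a neuronal membrane protein.

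The lowest value of all pairs was that of BAZ1A and ONECUT2. Its correlation over cells was -0.390 in human 4 and -0.369 in human 5, where the shared profile gives -0.0568 and -0.0628, an excess of -0.333 and -0.306. The underlying shares had a correlation of -0.568 and -0.587. NPAS3 and ONECUT2 had an excess of -0.245 and -0.233, ONECUT2 and TENM3 -0.160 and -0.176, and DCTD and ONECUT2 -0.131 and -0.157. ARHGAP5 and GLI2 were the other partners held below with ONECUT2. GLI2 and ONECUT2 gave -0.105 and -0.121, although GLI2 averaged less than 1 UMI in 60.

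The contrast can be read as transcript numbers. In human 4, cells with 0 ONECUT2 UMIs had a mean of 5.34 BAZ1A UMIs of 60, cells with 1 to 2 had 4.49, cells with 3 to 5 had 2.78 and cells with 6 or more had 1.96. Drawn from the shared profile, the same classes would run only from 4.08 down to 3.64, the part that the fixed total alone gives. In human 5 the BAZ1A means were 5.18, 4.44, 3.11 and 2.28, where the shared profile gives 3.88 down to 3.45. BAZ1A was thus lower in each class richer in ONECUT2, in both libraries. NPAS3 ran from 5.94 to 3.33 UMIs in human 4 and from 6.00 to 3.55 in human 5 between the same outer classes. PLXNC1 went the other way, from 1.10 to 2.06 UMIs in human 4 and from 1.17 to 2.14 in human 5, with most of the step between the classes of 0 and of 3 to 5 ONECUT2 UMIs. NRSN2 went from 2.81 to 3.97 and from 2.85 to 3.58, and AKAP6 from 10.1 to 11.6 and from 10.2 to 11.5. Read in the other direction, ONECUT2 averaged 4.31 UMIs in human 4 cells with 0 or 1 BAZ1A UMI and 0.923 in cells with 7 or more. In human 5 the same means were 4.96 and 1.46.

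**Figure D3:**
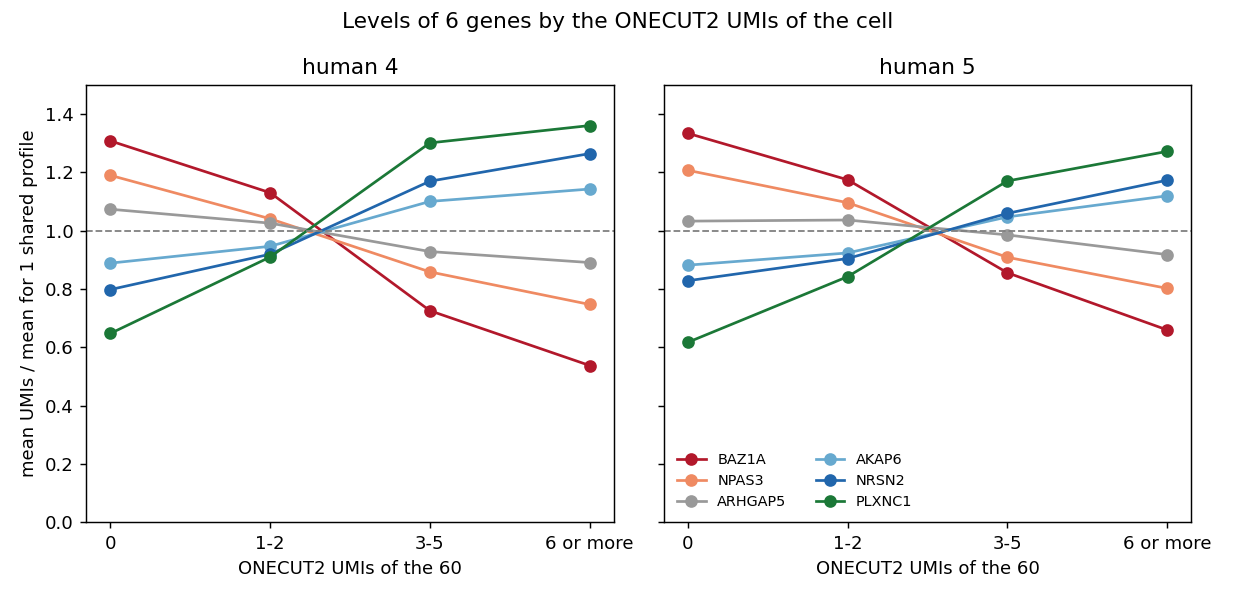
Mean UMIs of 6 genes divided by the mean that 1 shared profile gives (vertical axis), in cells with 0, 1 to 2, 3 to 5 and 6 or more ONECUT2 UMIs of 60 (horizontal axis), in human 4 and human 5, with a dashed line at 1. BAZ1A goes from 1.31 to 0.538 in human 4 and from 1.33 to 0.660 in human 5, and PLXNC1 goes from 0.647 to 1.36 and from 0.617 to 1.27.

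BAZ1A was in 5 pairs held above and 4 held below. Its strongest companion was ARHGAP5, with an excess of 0.262 in human 4 and 0.219 in human 5. NPAS3 gave 0.210 and 0.181, DCTD 0.198 and 0.201, PSMA6 0.161 and 0.127 and TENM3 0.102 and 0.136. Cells rich in BAZ1A thus had larger shares of a brain transcription factor, a nucleotide enzyme, a proteasome subunit, an adhesion protein and ARHGAP5. In human 4, NPAS3 went from a mean of 4.04 UMIs of 60 in cells with 0 or 1 BAZ1A UMI to 5.27 in cells with 7 or more, and in human 5 from 4.12 to 5.09.

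Of the companions of ONECUT2, 3 were held below with BAZ1A. AKAP6 and BAZ1A had an excess of -0.232 in human 4 and -0.204 in human 5, BAZ1A and NRSN2 had -0.218 and -0.203, and BAZ1A and PLXNC1 had -0.207 and -0.196. AKAP6 averaged 13.1 UMIs of 60 in human 4 cells with 0 or 1 BAZ1A UMI and 8.28 in those with 7 or more, and 12.7 and 8.61 in human 5. The underlying shares of BAZ1A and PLXNC1 had a correlation of -0.571 and -0.606.

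Pairs without ONECUT2 and BAZ1A repeated both sides. AKAP6 and NRSN2 were held above at 0.171 and 0.145, NRSN2 and PLXNC1 at 0.162 and 0.129, and AKAP6 and PLXNC1 at 0.138 and 0.134. On the other side, ARHGAP5 and NPAS3 gave 0.191 and 0.141, and GLI2 and NPAS3 gave 0.142 and 0.114, with a correlation of the underlying shares of 0.546 and 0.539. Across the sides, AKAP6 and NPAS3 had -0.158 and -0.130, AKAP6 and ARHGAP5 -0.144 and -0.131, ARHGAP5 and NRSN2 -0.143 and -0.116, and NPAS3 and PLXNC1 was the last of the 13 pairs held below.

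The companions of ONECUT2 (AKAP6, NRSN2, PLCL2, PLXNC1 and SCRT2) formed 10 pairs among themselves. All 10 had an excess above 0 in both libraries and 3 were held. The partners held below with ONECUT2 (ARHGAP5, BAZ1A, DCTD, GLI2, NPAS3 and TENM3) formed 15 pairs, of which 15 were above 0 in both libraries and 6 were held. Of the 30 pairs between these sets, 29 were below 0 in both libraries and 7 were held below. Among all 171 pairs, 83 were above 0 and 75 below 0 in both libraries. An excess above 0 does not always mean that the underlying shares rose together. ARHGAP5 and TENM3 in human 4 had an excess of 0.0259 and a correlation of the underlying shares of -0.0293. For AKAP6 and PLCL2 in human 5 these were 0.0167 and -0.00912. These sets were chosen from the same values and describe the pattern only.

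**Figure D4:**
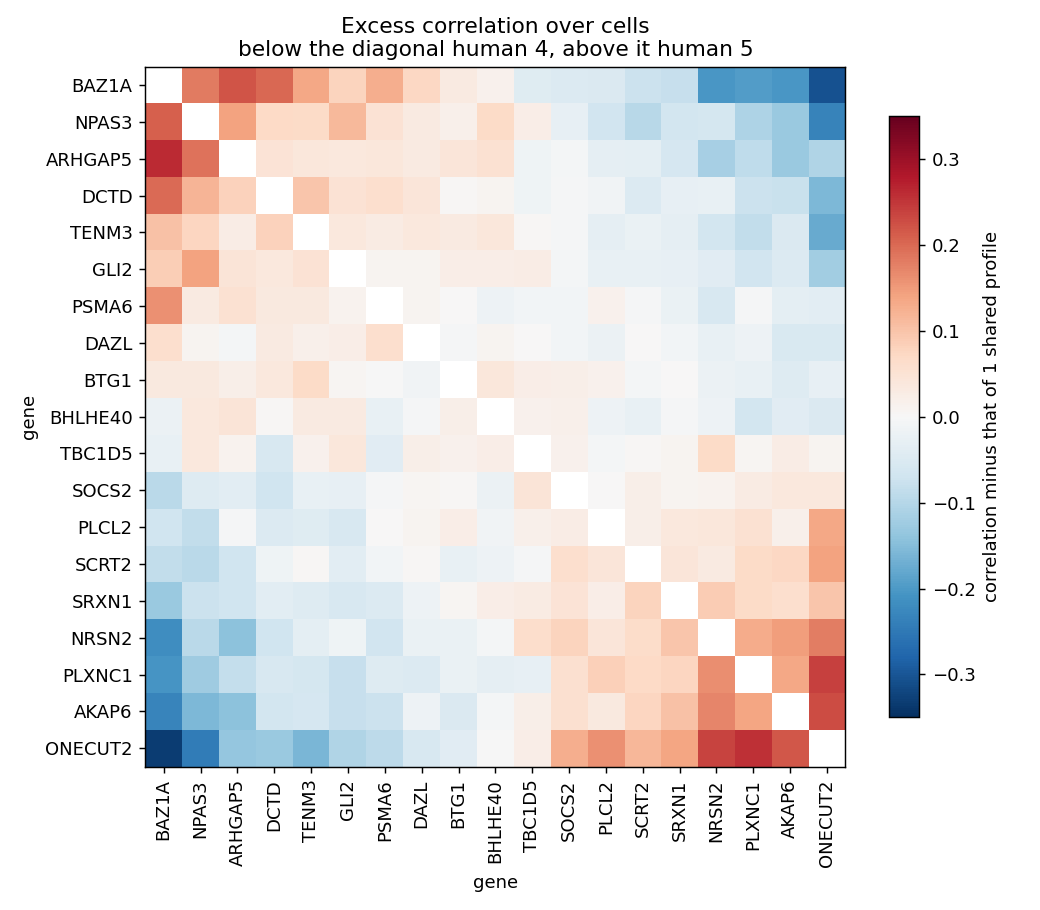
Excess correlation of every pair of the 19 genes, in human 4 below the diagonal and in human 5 above it, with genes along both axes, red for pairs above and blue for pairs below the value that 1 shared profile gives. Genes are ordered by their mean loading on the first principal axis of the covariance in the same cells, so the arrangement in blocks follows from that order. The companions of ONECUT2 and the partners held below with it lie in red corners at opposite ends of the diagonal, with blue where they meet.

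The same contrast led a decomposition over all genes. The first principal axis of the covariance beyond counting took 34.6% of it in human 4 and 36.2% in human 5, and the second took 9.74% and 9.47%. On the first axis, ONECUT2 had loadings of 0.470 and 0.496, AKAP6 0.341 and 0.330, NRSN2 0.261 and 0.240 and PLXNC1 0.251 and 0.263. BAZ1A had -0.447 and -0.448, NPAS3 -0.307 and -0.305 and ARHGAP5 -0.239 and -0.230. The axis was computed for the same cells and is a restatement of the pair values.

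TBC1D5, BTG1, BHLHE40, SOCS2, SRXN1 and DAZL were in 0 held pairs. SRXN1, which reduces oxidised peroxiredoxins, came nearest, with 0.139 and 0.0965 beside ONECUT2 and -0.131 and -0.0818 beside BAZ1A. BTG1 varied more between cells than NRSN2 in human 4, at ratios of 1.45 and 1.43, yet its largest pair, with TENM3, had an excess of only 0.0670 and 0.0318. The largest pair of BHLHE40 was that with NPAS3, at 0.0382 and 0.0657. DAZL gave 0.0590 and 0.0718 with BAZ1A, and TBC1D5 gave 0.0622 and 0.0664 with NRSN2. Low counts limit the size that a correlation can reach, so small values of the genes under 2% of the UMIs do not show that their shares are unrelated.

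Genes that neighbour each other did not form 1 group. Of the 20 pairs within a chromosomal neighbourhood of the panel, 4 were held above and 3 below, with a median excess of 0.0428 in human 4 and 0.0298 in human 5. The other 151 pairs had 11 and 10 held and medians of -0.00220 and 0.00154. The held neighbours all lie on chromosome 14 between ARHGAP5 (32076114 to 32159728, hg38) and PSMA6 (35278633 to 35317493), where they fall on both sides of the contrast. AKAP6 (32329273 to 32837681) and NPAS3 (32934933 to 33804176) are 97.3 kb apart and were held below, and AKAP6 and ARHGAP5 are 170 kb apart and were also held below. ARHGAP5 and BAZ1A (34752731 to 34875647) are 2593 kb apart and were held above, as were BAZ1A and PSMA6 at 403 kb. On chromosome 4, DCTD and TENM3, 87.0 kb apart, gave 0.0819 and 0.0980, just under the threshold. On chromosome 20, NRSN2 and SRXN1 gave 0.0963 and 0.0889, SCRT2 and SRXN1, only 8.23 kb apart, gave 0.0780 and 0.0419, and NRSN2 and SCRT2 gave 0.0636 and 0.0317. With counting noise removed, the underlying shares of these pairs had correlations of 0.480 and 0.390, 0.679 and 0.358, and 0.321 and 0.176. SCRT2 and SRXN1 averaged less than 1 UMI in 60, so their small excess does not show that they vary together only weakly. Their share correlation also rests on little variance beyond counting, with ratios of 1.12 and 1.09 for SCRT2 and 1.13 and 1.19 for SRXN1. The pairs on chromosome 12 (BTG1, SOCS2 and PLXNC1) and on chromosome 3 (DAZL, PLCL2 and TBC1D5) ran from -0.0255 to 0.0554.

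Of the 25 pairs within a group of like role, 7 were held above (28%) and 2 below (8%), and of the 95 pairs between such groups 5 were held above (5.26%) and 8 below (8.42%). The roles were assigned with earlier results known, and the difference was not tested. Of the 10 pairs of transcription factors (NPAS3, GLI2, ONECUT2, BHLHE40 and SCRT2), 2 were held above, GLI2 with NPAS3 and ONECUT2 with SCRT2, and 2 below, ONECUT2 with NPAS3 and with GLI2. Of the 6 pairs of neuronal surface and signalling genes (AKAP6, TENM3, PLXNC1 and NRSN2), 3 were held above and 0 below. The 3 held pairs left out TENM3, which varied with BAZ1A instead. Among the 6 pairs of general maintenance genes (PSMA6, DCTD, TBC1D5 and BAZ1A), 2 were held above, both with BAZ1A. The 3 pairs of growth and stress genes (BTG1, SOCS2 and SRXN1) had 0 held, with medians of 0.00789 and 0.0101.

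Other measures of a cell moved with the same genes. Guide-barcode UMIs (log2) had a correlation over cells of 0.303 in human 4 and 0.331 in human 5 with BAZ1A, and of -0.309 and -0.328 with ONECUT2. The GAPDH share had a correlation of -0.289 and -0.270 with BAZ1A and 0.194 and 0.131 with ONECUT2. Correlations of any gene with the number of UMIs outside GAPDH were at most 0.137 in size. After linear adjustment for all of these measures, 12 of the 15 pairs held above and 8 of the 13 held below stayed past 0.10, and BAZ1A and ONECUT2 had -0.247 in human 4 and -0.213 in human 5. Among cells with 1 assigned guide barcode, centred on the mean of that barcode (651 and 624 cells), 17 pairs were held above and 14 below, and these held all 15 main pairs above and 12 of the 13 below. Cells with several guide barcodes, which can be doublets, numbered 100 and 58, and without them 14 pairs were held above and 13 below. The barcodes name neither target nor control, so what each guide did was not tested.

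Leaving out every cell with a shared barcode gave 1399 cells in human 4 and 2916 in human 5, with 15 pairs held above and 14 below. Of the main pairs, 14 of 15 above and 13 of 13 below were held there. BAZ1A and TENM3, at 0.0996 and 0.151, then lay just under the threshold in human 4. ONECUT2 and SRXN1, at 0.140 and 0.113, were past it, and BAZ1A and SRXN1, at -0.129 in human 4, passed at the threshold itself in human 5. In human 5 the size of the excess became larger without these cells in 28 of 28 held pairs.

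The size of the values differed with the depth of the cells before thinning. With all cells thinned to 30 UMIs, the excess of BAZ1A and ONECUT2 in human 4 was -0.172 in the 248 cells with 60 to 89 UMIs, -0.243 in the 451 cells with 90 to 129 and -0.254 in the 745 cells with 130 or more. In human 5 it was -0.165, -0.220 and -0.259. ONECUT2 and PLXNC1 had 0.141, 0.186 and 0.151 in the same classes of human 4 and 0.121, 0.162 and 0.179 in human 5, so not every pair was largest in the deepest cells. In each of these classes, the 28 held pairs kept the sign of their excess in both libraries. Below the rule, in cells with 30 to 59 UMIs, the excess was -0.129 in 358 cells of human 4 and -0.0924 in 928 cells of human 5. There, 20 and 25 of the 28 pairs kept their sign and 0 pairs were held. In that class 50.3% and 58.5% of cells had a shared barcode, and without them 18 and 25 of the 28 pairs kept their sign.

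The chimpanzee libraries of the same panel gave 5610 and 3915 cells under the same rule. There, 7 pairs were held above (4.09%) and 8 below (4.68%), and 8 of these 15 were among the 28 held in human. The sign of the excess was the same in both chimpanzee libraries for 14 of the 15 human pairs held above and for 12 of the 13 held below. Of all 171 pairs, 31 had both human libraries on the opposite side of 0 from both chimpanzee libraries. Some of the shared signs came from values near 0, such as BAZ1A and PLXNC1 at -0.0116 and -0.00146 in the chimpanzee libraries. For BAZ1A and TENM3 the excess there was 0.0476 and 0.0625, while the underlying shares had a correlation of -0.0255 and -0.0185. AKAP6 and ONECUT2 had an excess of 0.395 in chimpanzee 3 and 0.493 in chimpanzee 4, above the 0.217 and 0.228 of the human libraries. ONECUT2 and PLXNC1 had 0.0103 and 0.0414 there, and the correlation of the underlying shares was 0.0109 and 0.104 where the human values were 0.558 and 0.566. BAZ1A and ONECUT2 had an excess of -0.135 and -0.172, and BAZ1A and NPAS3 had -0.00608 and -0.0122 where the human libraries had 0.210 and 0.181. The underlying shares of BAZ1A and NPAS3 had a correlation of -0.159 and -0.158 in chimpanzee and 0.306 and 0.294 in human. NPAS3 took 16.7% and 14.6% of the UMIs in the chimpanzee cells, against 7.96% and 7.82% in the human cells. For BAZ1A and NPAS3 the order of the species went the other way in other libraries, as given below for the genes on both panels. In the chimpanzee cells ONECUT2 took 1.82% and 1.95% of the UMIs and PLXNC1 took 1.39% and 1.36%, lower levels than in the human cells. Low counts limit the size of the excess. The correlation of the underlying shares has the expected counting noise subtracted, and its precision at the levels of ONECUT2 and PLXNC1 was not tested. The cause of the differences between the species was not tested. With 2 libraries per species an exact two-sided permutation test cannot give a p below 0.333, so the differences are given as values. How well the probes match chimpanzee transcripts was not tested. Of the chimpanzee cells, 20.0% and 36.2% had a barcode that was also in another library. Without them (4489 and 2498 cells), 9 pairs were held above and 9 below, 11 of them also held in human. AKAP6 and ONECUT2 then had 0.426 and 0.526, ONECUT2 and PLXNC1 0.0120 and 0.0365, and BAZ1A and ONECUT2 -0.153 and -0.183.

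In the other human libraries of WTC11 a smaller panel of 10 genes was measured, with 7 genes on both panels. For these genes, cells were thinned to 40 UMIs over the 7. AKAP6 and BAZ1A had an excess of -0.292 in human 4 and -0.246 in human 5, and from -0.0698 to -0.0373 in the 4 libraries of the smaller panel (1192 to 7339 cells). BAZ1A and NPAS3 had 0.121 and 0.0881, against -0.0452 to 0.00364, and ARHGAP5 and BAZ1A had 0.148 and 0.114, against 0.00919 to 0.0529. AKAP6 and NPAS3 had -0.120 and -0.108, against -0.0170 to 0.0420. ARHGAP5 and NPAS3, and BAZ1A and DCTD, also lay above the range of the smaller panel in both libraries. The values of BAZ1A with PSMA6, BAZ1A with TENM3 and AKAP6 with ARHGAP5 overlapped between the panels. Panel and library cannot be told apart in this comparison, since no library carried both panels. Human 1, human 2 and human 3 were also of screen replicate 1, while human 6 was of screen replicate 2 like human 4 and human 5. Thinned in the same way, BAZ1A and NPAS3 had 0.185 in chimpanzee 1, 0.183 in chimpanzee 2 and 0.0249 in chimpanzee 5. In chimpanzee 3 and chimpanzee 4 the pair had -0.0233 and -0.0387. The order of the species for this pair thus differed between libraries, and the cause was not tested.

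**Figure D5:**
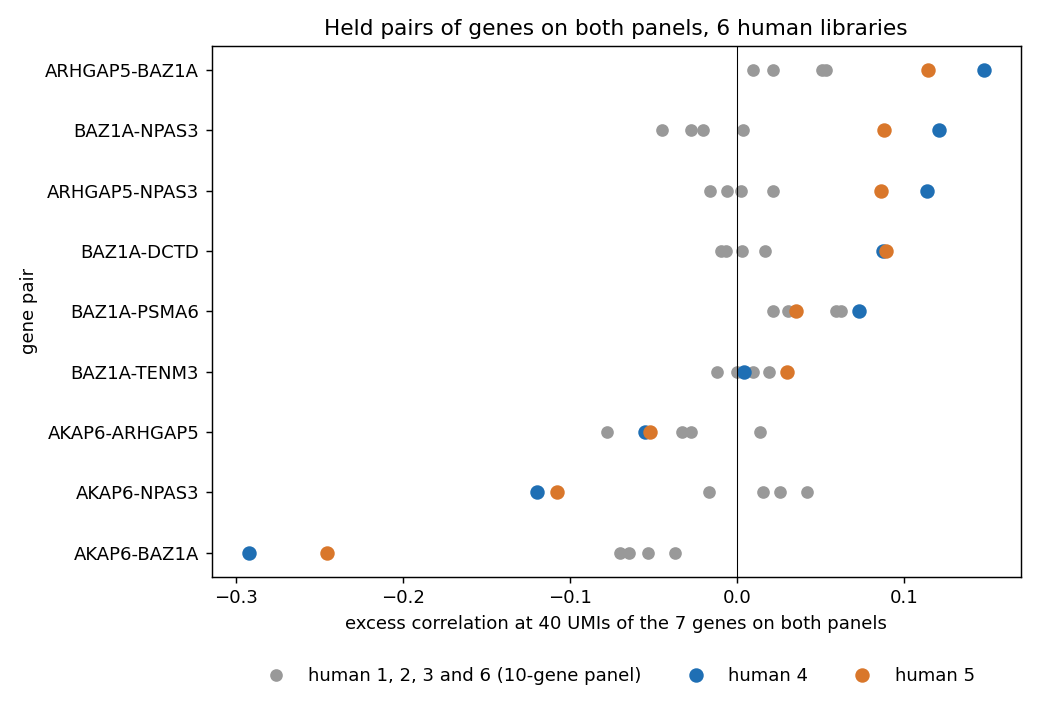
Excess correlation of 9 held pairs whose genes are on both panels, in 6 human libraries, with cells thinned to 40 UMIs over the 7 shared genes. AKAP6 with BAZ1A lies at -0.292 and -0.246 in human 4 and human 5 and between -0.0698 and -0.0373 in the others, and 3 of the 9 pairs overlap between the panels.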

How the data were processed

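UMIs had been counted per cell barcode and gene probe by the authors, and the deposited tables hold these raw counts, per the file headers. Tools in the submitters' processing notes are SAMtools, Bowtie, fastp and UMI-tools, with hg38 as the build. Their versions and the rule for keeping barcodes were not given in these sources. Correlations were computed in Python 3.11.15 (NumPy 2.4.6, pandas 2.3.3) for each library on its own, as the exact mean over all ways of thinning a cell to 60 UMIs outside GAPDH. The expectation was the closed form of multinomial draws from the library's mean profile. The scripts were tested on simulated data. All 20 columns outside GAPDH counted toward the 60 UMIs, and 1 of them is not reported here. Named are the 10 held pairs with the largest mean excess in each direction, all neighbourhood pairs and each gene's largest pair. A few others (the remaining held pairs and those past 0.10 in 1 library) were named after their values were seen. The members and lists were chosen with earlier results of these data known. No doublet caller was run, and leaving out cells with several guide barcodes served as the check on doublets. Alternatives covered depth, the GAPDH limit, the threshold, the scale, single genes, guide barcodes and each library. Leaving out shared barcodes (in human and chimpanzee libraries), thinning the same cells to 30 UMIs and the adjustment for cell measures were added after seeing the data. Gene coordinates come from GENCODE on GRCh38. No interval is given for cells, which share their library.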

Additional observations from a re-analysis of the deposited data

Results flagged for a closer look

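In the 6 human libraries thinned over the shared genes, 2 of 21 pairs had a library far from the other 5. ARHGAP5 and PSMA6 had an excess of 0.0596 in human 1, and DCTD and TENM3 had 0.0493 in human 5. Chance gives about 1 in 20 such groups, or 1.05 of 21, where pairs are independent and libraries are alike. Here the pairs shared genes and the libraries carried different panels, so this rate need not apply. For 31 of the 171 pairs, both human libraries of the 21-gene panel lay on the opposite side of 0 from both chimpanzee libraries, a difference that was not tested. Of the 50 pairs that are held, past 0.10 in 1 library, neighbours or the largest of a gene, 7 were among these. Their human mean excess was 0.196 for BAZ1A and NPAS3, 0.0950 for DCTD and NPAS3, 0.0519 for BHLHE40 and NPAS3, 0.0494 for BTG1 and TENM3, 0.0121 for BTG1 and SOCS2, -0.0242 for BTG1 and PLXNC1 and -0.0542 for AKAP6 and PSMA6. Over the shared genes, BAZ1A and NPAS3 kept this order in the same libraries. The excess was 0.121 and 0.0881 in human 4 and human 5, against -0.0233 and -0.0387 in chimpanzee 3 and chimpanzee 4. Other libraries had the opposite order, with 0.185 and 0.183 in chimpanzee 1 and chimpanzee 2 and -0.0452 to 0.00364 in the other human libraries.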

How the results depend on the processing

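Across the alternatives the 21 named held pairs kept their sign in 411 of 415 values, and the variance ratio stayed above 1 in 94 of 94. Most alternatives reused all or part of the cells in which these pairs were picked, so these counts are not an independent check. The 4 changes of sign were all in the alternative made only of cells outside the rule, those with 30 to 59 UMIs. There the mean excess over both libraries was -0.0275 for AKAP6 and NRSN2, 0.0498 for AKAP6 and ARHGAP5, 0.0273 for AKAP6 and NPAS3 and 0.0167 for ONECUT2 and TENM3. The cause was not tested. In place of 15 pairs held above and 13 below, there were 28 and 29 at a threshold of 0.05 and 6 and 6 at 0.15. Thinning to 100 UMIs in cells that had them (1078 and 1844 cells) gave 23 and 21, and all 28 main pairs were among these. The pairs held below numbered 8 at 40 UMIs, 8 in cells under the median depth and 8 after adjustment for cell measures. At 30 UMIs in the same cells 6 were held above and 6 below, and in cells with 30 to 59 UMIs 0 and 0. Thinning the same cells to fewer UMIs leaves more counting noise in each correlation by construction. For the cells with 30 to 59 UMIs, set beside the cells of the rule at the same 30 UMIs, and for the adjustment, the cause was not tested. With 1 library left out the counts ran from 15 to 19 above and from 13 to 14 below. No paired analysis was possible because correlations within a library compare no groups and come from no test.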
